A study of Mus musculus with 6 samples.

Results

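The genes described here are 10 genes of fibroblast receptors and extracellular matrix other than collagen: Pdgfra, Pdgfrb, Dcn, Lum, Fn1, Sparc, Postn, Thy1, Fap and Tnc. Every probe set annotated to exactly 1 of these symbols was taken, which gave 18 of the 45101 probe sets and 10 of 18194 named genes. They were measured on 6 Affymetrix expression arrays of total RNA from mouse colon tumours, on which each transcript is read by 1 or more sets of short probes, called probe sets. The 3 control arrays are labelled wild type and the 3 transgenic arrays IL8 transgenic, for a transgene of human IL8 (CXCL8), a chemokine that attracts neutrophils. All mice were CBA/C57BL/6, and all are labelled male. The sources used here do not give the age of the mice, the cells in which the transgene is active, how the tumours arose or whether an array holds 1 tumour or a pool. The p-values therefore reflect the spread among these 6 samples, which may be technical in part.

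Fibroblasts build the scaffold of a tissue and are found throughout the stroma of colon tumours. PDGFRA and PDGFRB are receptor tyrosine kinases through which platelet-derived growth factors act on mesenchymal cells. Decorin and lumican are small leucine-rich proteoglycans that bind collagen fibrils, fibronectin is a glycoprotein that cells grip through integrins, and SPARC, periostin and tenascin-C are matricellular proteins, which alter how cells interact with the matrix rather than bear load. THY1 (CD90) is a surface protein of fibroblasts, T cells and neurons in the mouse, and FAP is a membrane protease of activated fibroblasts.

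The arrays had medians of 3.31 to 3.36 on the log2 scale, and 41.8% to 43.0% of probe sets reached 4, the level used as the filter for testing. The labelled tissue carried its markers, since all 10 colon epithelium genes listed passed the filter, with a mean level over the list of 11.67 to 12.11 on control and 11.98 to 12.25 on transgenic arrays. The labels record male animals throughout. Xist, the RNA of the inactive X chromosome, was at 2.33 to 2.64 on the control arrays and at 12.27 to 12.89 on all 3 transgenic arrays, and the Y-linked gene Eif2s3y lay at 9.99 to 10.22 and 2.39 to 2.71 in that order. Genotype and this split cannot be told apart in any comparison below, and no transgenic array here lacks it. Transgenic array 2 also held Krtdap, a gene of stratified squamous epithelium, at 12.31, against 2.62 or less elsewhere. Transgenic array 1 had the smallest difference between the 3' and 5' Gapdh control probe sets, 0.71 against 0.87 to 0.96.

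At the brightest tested probe set, most of these stromal genes had a lower mean in the transgenic tumours. Tnc had a higher mean, Postn differed by only 0.05, and no gene passed the test. The lower ones include Fn1, whose probe sets differed in direction, and Lum, whose sign turned without transgenic array 1. They also include Thy1 and Pdgfrb, whose groups overlapped at that probe set. Pdgfra was on average 2.37-fold lower, Sparc 1.51-fold lower and Tnc 1.48-fold higher. Of the 18 probe sets, 13 reached 4 on at least 3 of the 6 arrays and were tested, and these stood for 9 genes, all but Fap. With limma's moderated test, 0 of the 13 had a Benjamini-Hochberg adjusted p under 0.05, against 0.057% of all 19310 probe sets tested, and 4 had an unadjusted p under 0.05, against 5.5% of all. All 4 were lower in the transgenic tumours, against 3.29% of all. The groups did not overlap at 7 of the 13 probe sets, against 10.9% of all probe sets tested. Of the 7, 6 were lower (6.31% of all) and 1 higher (4.61% of all). Both tested probe sets of Pdgfra are counted in the 4 and in the 6. Members were chosen with earlier results of these data known, so the shares set beside these counts carry no test. Without transgenic array 2, the array with Krtdap, the groups were apart at 11 of the 13, and at 16.6% of all probe sets. Over the 9 genes, each read by its brightest tested probe set, the median difference was -0.40, against -0.02 over all 10289 genes tested, and 7 of the 9 were lower, against 53.8% of all genes.

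**Figure D1:**
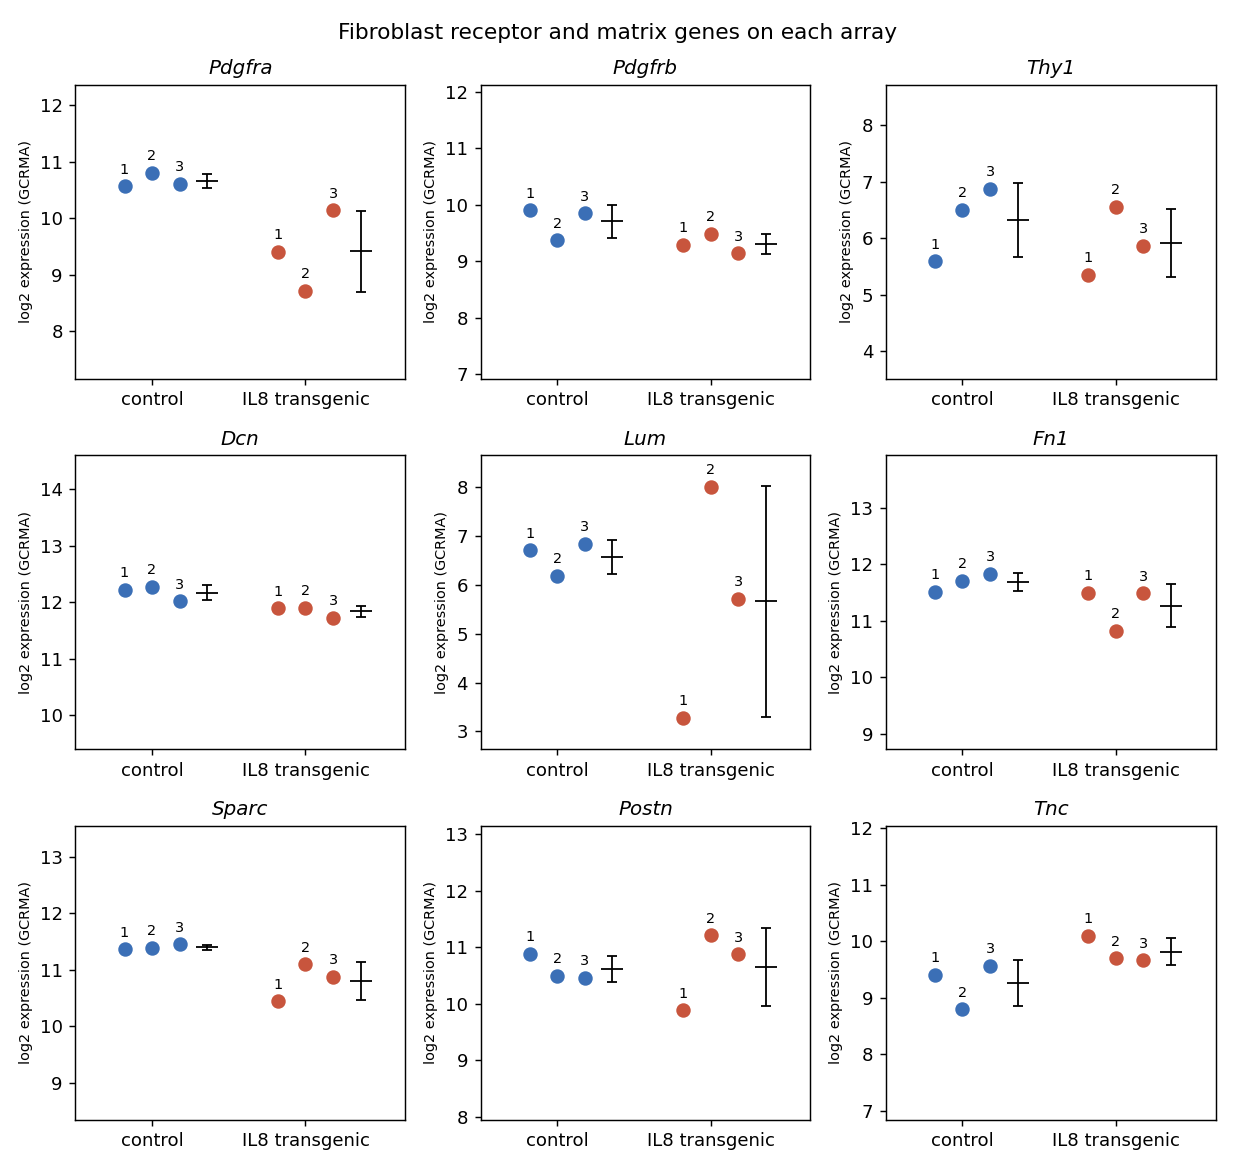
Log2 expression of 9 genes on each array, control in blue and transgenic in red, numbered by replicate, with the group mean and SD (n = 3) in black. The y axes differ in position between genes and cover the same span except for Lum, where it is wider. Pdgfra, Dcn, Fn1 and Sparc have all transgenic arrays below all control arrays, Tnc has all above, and Lum spreads from 3.28 to 7.997 within the transgenic group.

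Of the receptors, Pdgfra (brightest probe set 1421917_at) was at 10.56, 10.81 and 10.61 on control arrays 1 to 3 and at 9.40, 8.71 and 10.14 on transgenic arrays 1 to 3. All transgenic arrays lay below all control arrays, and they were spread over a wider range, with array 2 lowest. The difference was -1.24 ± 0.36 (SE), with a 95% interval of -2.11 to -0.38, and did not pass (limma adjusted p 0.806). It was -0.89 without transgenic array 2, and 2.04% of all genes tested had a difference further below 0. The second tested probe set of Pdgfra, 1438946_at, had 5.63, 5.14 and 5.95 in control and 4.07, 4.82 and 5.13 in transgenic tumours, so its groups were barely apart. The third, 1421916_at, did not pass the filter and reached at most 4.22.

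Pdgfrb (1436970_a_at) was at 9.90, 9.37 and 9.84 in control and at 9.29, 9.48 and 9.14 in transgenic tumours. Its groups overlapped, and the difference of -0.40 ± 0.20 had a 95% interval of -0.89 to 0.09. Its dimmer probe set, 1417148_at, had 5.07, 5.35 and 5.26 against 4.77, 4.50 and 4.82, with the groups apart and a difference of -0.53 ± 0.16. Neither probe set passed (limma adjusted p 0.806 for both). The 2 receptors did not rank the transgenic arrays alike, since Pdgfra was lowest on array 2 and the brighter Pdgfrb probe set lowest on array 3.

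The PDGF ligand list had 4 of 4 genes tested, 0 passed in either direction, 2 were higher and 2 lower, and the median difference was -0.01. That median had no settled sign: leaving out control array 1 gave -0.37, and leaving out transgenic array 3 gave 0.25. Pdgfc, a ligand that acts mainly through PDGFRA, was at 8.25, 8.41 and 8.65 in control and at 8.70, 6.92 and 7.58 in transgenic tumours. Pdgfa, another PDGFRA ligand, had a difference of -0.04 ± 0.15. After values below 4 were raised to 4, that of Pdgfb was 0.14 ± 0.36 and that of Pdgfd 0.14 ± 0.62. Pdgfc was thus the only ligand with a difference larger than its SE, and its groups overlapped.

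Of the surface proteins, Thy1 (1423135_at) was at 5.59, 6.51 and 6.88 in control and at 5.36, 6.55 and 5.87 in transgenic tumours. The groups overlapped almost fully, and the difference of -0.40 ± 0.43 had a 95% interval of -1.44 to 0.64 (limma adjusted p 0.846). It was -0.12 without transgenic array 1. Of 9 T cell markers, which share Thy1 in the mouse, 0 passed the filter, with Cd3e at 2.20 or less and Cd8a at 4.12 or less on every array. Of 9 enteric neuron and glia markers only Ret passed, and Sox10 and Uchl1 reached at most 2.86 and 2.73.

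Fap (1417552_at) had 3.00, 3.08 and 2.77 in control and 3.73, 3.66 and 3.12 in transgenic tumours. All 6 values are under 4, where background is not told from signal, so no difference is given. Of its relatives among the prolyl peptidases, 5 of 5 were tested and 0 passed. The median difference was -0.08, and it was -0.40 without transgenic array 2 and -0.64 without array 3. Prep, a cytosolic prolyl endopeptidase, differed by -0.53 ± 0.17 and Dpp7 by -0.62 ± 0.23, each with its groups apart, while Dpp8 differed by 0.11 ± 0.25 and Dpp9 by -0.05 ± 0.19.

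Of the proteoglycans, Dcn (1449368_at) was at 12.22, 12.27 and 12.02 in control and at 11.90, 11.90 and 11.73 in transgenic tumours. Every transgenic array lay below every control array by a small margin, and the 6 values covered 0.54. The difference was -0.33 ± 0.15, a 1.26-fold lower level, with a 95% interval of -0.69 to 0.03 (limma adjusted p 0.806). The other Dcn probe set stayed at 3.304 or less.

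Lum (1423607_at) was at 6.70, 6.18 and 6.83 in control and at 3.28, 7.997 and 5.71 in transgenic tumours. Both the lowest and the highest of the 6 arrays were transgenic, so that the groups overlapped. The difference of -0.91 ± 1.10 had a 95% interval of -3.58 to 1.76 (limma adjusted p 0.866), and it was -0.67 with the value under 4 set to 4. It turned to 0.28 when transgenic array 1 was left out and to -2.08 when array 2 was. The SD was 2.36 within the transgenic and 0.34 within the control group, and 0.972% of all genes tested had a larger transgenic SD. The transgenic SD and this share were taken with the value under 4 as deposited. Dcn and Lum are neighbours on mouse chromosome 10 in the RefSeq table, with 0 protein-coding genes between them, followed by the related genes Kera and Epyc, which reached at most 2.61 and 2.21.

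On transgenic array 1, where Lum was lowest, the fibrillar and type VI collagens lay -1.69 from the control mean on average, against -0.15 and -0.34 on transgenic arrays 2 and 3. On array 2, where Lum was highest, the smooth muscle list lay at 3.14, against -0.89 and 2.03 on arrays 1 and 3. Of the 9 smooth muscle markers 6 were tested. Their mean level was 6.84 to 7.84 on control and 6.40 to 10.43 on transgenic arrays. The other markers missed the filter, although Des reached 8.41 and Smtn 5.399 on their highest array. Lmod1 reached at most 4.22 on any array. The part of either list in the Lum values was not tested. In bulk tissue, fewer cells of a type and less RNA per cell cannot be told apart.

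Other small leucine-rich proteoglycans were tested at 4 of 10 listed genes. Of these 0 passed, 3 were lower and 1 higher, with a median difference of -0.47. The other listed genes missed the filter, although Fmod reached 7.16 and Aspn 5.12 on their highest array. Bgn, which encodes biglycan, was at 10.33, 10.32 and 10.43 in control and at 9.75, 9.64 and 9.83 in transgenic tumours. These groups were apart and the spread within each was small, and the difference of -0.62 ± 0.14 did not pass (limma adjusted p 0.806). Bgn lies on the X chromosome, and its difference and the Xist split cannot be told apart. Podn was under 4 on 2 of 3 transgenic arrays and differed by -0.81 ± 0.21 with those values set to 4. Prelp, the 1 higher gene, differed by 0.46 ± 0.65 on the same footing. Ogn, under 4 on transgenic array 1 and at 6.75 to 8.54 on the others, had its lowest array in common with Lum. The list median was 0.25, -0.71 and -0.83 without transgenic array 1, 2 and 3 in turn, so no direction is given for the list.

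Fn1, the fibronectin gene, read differently at its probe sets. The brighter, 1426642_at, was at 11.51, 11.70 and 11.83 in control and at 11.49, 10.82 and 11.49 in transgenic tumours. The groups were barely apart, with transgenic array 2 well below the rest. The difference was -0.41 ± 0.23 (95% interval -0.97 to 0.15, limma adjusted p 0.806), and -0.19 without that array. The dimmer, 1437218_at, was at 5.79, 6.15 and 6.05 against 6.66, 5.76 and 6.27, with overlapping groups and a difference of 0.23 ± 0.26. No direction is therefore given for Fn1 as a whole.

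Integrins and co-receptors of fibronectin, tenascin and periostin were tested at 6 of 11 listed genes, with 0 passed, 3 higher, 3 lower and a median of 0.06. Itgb5 differed by -0.24 ± 0.16, the syndecan gene Sdc4 by 0.19 ± 0.18, Itgb6 by 0.17 ± 0.30 and Itgb3 by 0.16 ± 0.58. All 6 had overlapping groups. Itga5, the alpha subunit of the classical fibronectin receptor, stayed at 3.41 or less on every array. The median was -0.23 without transgenic array 1 and 0.15 without array 3, so it too has no settled sign.

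Of the 3 matricellular members, Sparc comes first. Its brightest probe set, 1416589_at, was at 11.36, 11.38 and 11.45 in control and at 10.44, 11.09 and 10.87 in transgenic tumours. All transgenic arrays were lower, array 1 most of all. The difference was -0.59 ± 0.20 with a 95% interval of -1.08 to -0.11 and did not pass (limma adjusted p 0.806), and it was -0.41 without transgenic array 1. A second probe set, 1448392_at, differed by -0.44 ± 0.20, with transgenic array 2 (10.37) just above control array 2 (10.34). The third stayed at 2.83 or less.

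Postn (1423606_at) was at 10.88, 10.49 and 10.46 in control and at 9.88, 11.21 and 10.87 in transgenic tumours. Transgenic array 1 was the lowest and array 2 the highest of all 6, and the difference was 0.05 ± 0.36 (95% interval -0.82 to 0.92, limma adjusted p 0.981). Its sign turned with single arrays left out, in a range of -0.23 without transgenic array 2 to 0.43 without transgenic array 1. Postn and Lum both ranked transgenic array 1 lowest and array 2 highest.

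Tnc (1416342_at) was at 9.41, 8.79 and 9.56 in control and at 10.09, 9.70 and 9.66 in transgenic tumours. It was the 1 tested gene of the set with all transgenic arrays above all control arrays, although control array 3 came within a small margin of the lowest transgenic array. The difference was 0.56 ± 0.25, with a 95% interval of -0.04 to 1.17 (limma adjusted p 0.806), and 0.33 without control array 2. On transgenic array 1, where Lum, Sparc, Thy1 and Postn were lowest, Tnc was highest. The other Tnc probe set stayed at 3.205 or less.

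**Figure D2:**
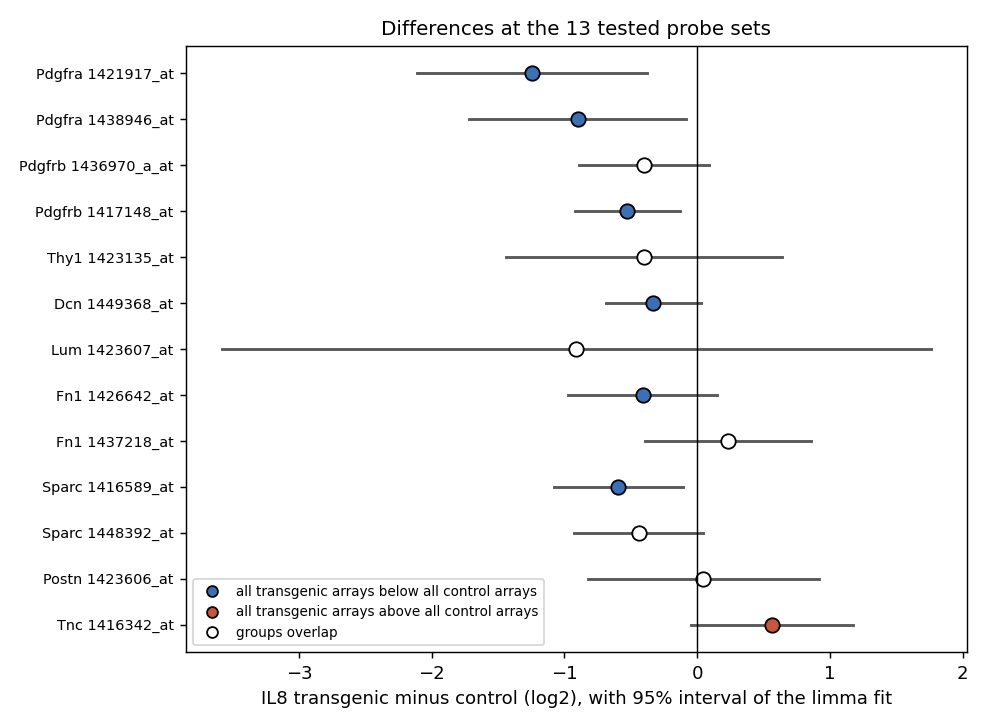
Difference between transgenic and control means (log2) at the 13 tested probe sets, with the 95% interval of the limma fit. Filled points mark groups that did not overlap, blue where lower and red where higher. The intervals of Pdgfra (both probe sets), the dimmer Pdgfrb probe set and the brightest Sparc probe set lie below 0 before adjustment, and that of Lum runs from -3.58 to 1.76.

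Promoter sequences are shown for the members that differed in how they moved across the arrays and had an entry in the RefSeq table of build GRCm38.p6, which held 4 of the 10 genes. Each line gives the 250 bases before the annotated start, 5' to 3' on the gene's strand. Capitals mark a TATA box (TATATAA) or a GC box (GGGCGG) on either strand. Pdgfra lies at chr5:75152001-75152250 (plus strand), Sparc at chr11:55420081-55420330 (minus), Postn at chr3:54360857-54361106 (plus) and Tnc at chr4:64046937-64047186 (minus).
Pdgfra: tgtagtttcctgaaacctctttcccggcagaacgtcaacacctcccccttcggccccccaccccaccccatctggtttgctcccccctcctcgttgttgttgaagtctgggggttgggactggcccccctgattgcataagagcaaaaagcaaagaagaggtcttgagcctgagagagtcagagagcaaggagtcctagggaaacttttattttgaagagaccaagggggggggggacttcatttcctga
Sparc: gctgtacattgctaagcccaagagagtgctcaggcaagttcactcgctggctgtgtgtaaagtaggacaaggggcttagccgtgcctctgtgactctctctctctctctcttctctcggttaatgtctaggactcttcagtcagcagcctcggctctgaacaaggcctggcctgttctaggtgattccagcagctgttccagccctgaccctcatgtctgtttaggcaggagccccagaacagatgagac
Postn: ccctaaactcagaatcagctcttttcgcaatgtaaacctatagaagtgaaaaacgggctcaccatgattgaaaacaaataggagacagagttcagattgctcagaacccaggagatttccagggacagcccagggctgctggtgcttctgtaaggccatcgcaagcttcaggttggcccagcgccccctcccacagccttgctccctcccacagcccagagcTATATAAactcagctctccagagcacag
Tnc: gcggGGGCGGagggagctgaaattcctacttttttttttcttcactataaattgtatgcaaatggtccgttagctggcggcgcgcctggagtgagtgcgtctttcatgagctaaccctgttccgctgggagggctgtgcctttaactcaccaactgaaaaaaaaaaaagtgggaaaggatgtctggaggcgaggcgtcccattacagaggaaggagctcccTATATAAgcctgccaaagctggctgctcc
The TATA box began 28 bases before the start in Postn and 29 in Tnc, and no match was found in the windows of Pdgfra and Sparc. Of all 32851 promoter windows in the table, 3.04% held this motif and 32.7% the GC box. The AP-1 motif TGANTCA (6.75% of windows) and the TEAD motif GGAATG (12.6%) were searched on both strands as well, without a match in these 4 windows. Postn and Tnc each have a second annotated start in the table, and neither of those windows held TATATAA. These matches describe the sequence, and their bearing on the levels was not tested.

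Among other matricellular genes, 12 of 17 listed were tested, 0 passed, 5 were higher and 7 lower. The list's median was -0.15, and it was 0.18 with the filter at 6, 0.06 with array quality weights, 0.03 without control array 3 and -0.28 without transgenic array 3, so no direction is given. Smoc2, a relative of Sparc, differed by -0.55 ± 0.21 with its groups apart, and Smoc1, under 4 on transgenic array 2, by -1.06 ± 0.46 with that value set to 4. Ccn2, which encodes connective tissue growth factor, was at 10.61, 10.43 and 10.15 in control and at 13.24, 11.16 and 10.69 in transgenic tumours. Like Tnc it had every transgenic array above every control array and its highest value on transgenic array 1. The Ccn2 difference of 1.30 ± 0.65 did not pass (limma adjusted p 0.806). Thbs4 differed by 2.03 ± 1.31 with overlapping groups.

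Structural matrix genes around the set also lay lower without passing. Of the basement membrane genes other than collagens, 13 of 14 listed were tested, 0 passed and 11 were lower, with a median of -0.41. The groups were apart and lower at 5 of the 13, against 6.31% of all probe sets. Among these were the laminin chain genes Lama1 (-1.48 ± 0.32), Lamb1 (-0.65 ± 0.21) and Lama4 (-0.91 ± 0.38) and the nidogen gene Nid1 (-0.41 ± 0.18). This list deviated alike on the transgenic arrays, by -0.44, -0.54 and -0.41 on arrays 1 to 3. Of the elastic fibre genes 7 of 15 were tested, 0 passed and 6 were lower, with a median of -0.75, which was -0.36 without transgenic array 1. Emilin1 differed by -1.05 ± 0.32, Fbln1 by -1.04 ± 0.41 and Ltbp1 by -0.76 ± 0.22, each with groups apart, and Fbln5 by -0.75 ± 0.45. That is 3 of the 7 apart and lower, against 6.31% of all probe sets. All 8 collagens listed were lower, 0 passed, and their median was -0.73, with 3 of the 8 apart and lower (6.31% of all probe sets). The median was -0.28 without transgenic array 1. Col6a1 differed by -0.88 ± 0.38, Col6a2 by -0.96 ± 0.48 and Col1a2 by -0.64 ± 0.33, each with overlapping groups. Col5a2 differed by -0.27 ± 0.13 with its groups apart. Hyaluronan and versican genes were tested at 3 of 9, with 0 passed. Their median was -0.46, and it was -0.17 without transgenic array 1 and -0.14 without array 2. Hyal2, a hyaluronidase gene, differed by -0.46 ± 0.30, Vcan, the versican gene, by -0.89 ± 0.61 and Cd44, the hyaluronan receptor gene, by 0.27 ± 0.20.

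The list of other fibroblast genes had 11 of 19 tested, 0 passed, 9 lower and 2 higher. The median was -0.53, and it was -0.24 without transgenic array 1 and -0.82 without array 2. The mesenchymal transcription factor genes Foxf1 (-0.83 ± 0.20), Foxf2 (-0.58 ± 0.20) and Tcf21 (-1.49 ± 0.57 with its 1 value under 4 set to 4) and the cadherin gene Cdh11 (-1.40 ± 0.63) had all transgenic arrays below all control arrays. These were 4 of the 11, against 6.31% of all probe sets. Foxf1 was at 7.51, 7.38 and 7.84 in control and at 6.68, 6.55 and 7.01 in transgenic tumours, with array 2 lowest, as for Pdgfra. Twist1, Twist2, Gli1 and Pi16 stayed at 3.07 or less on every array.

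**Figure D3:**
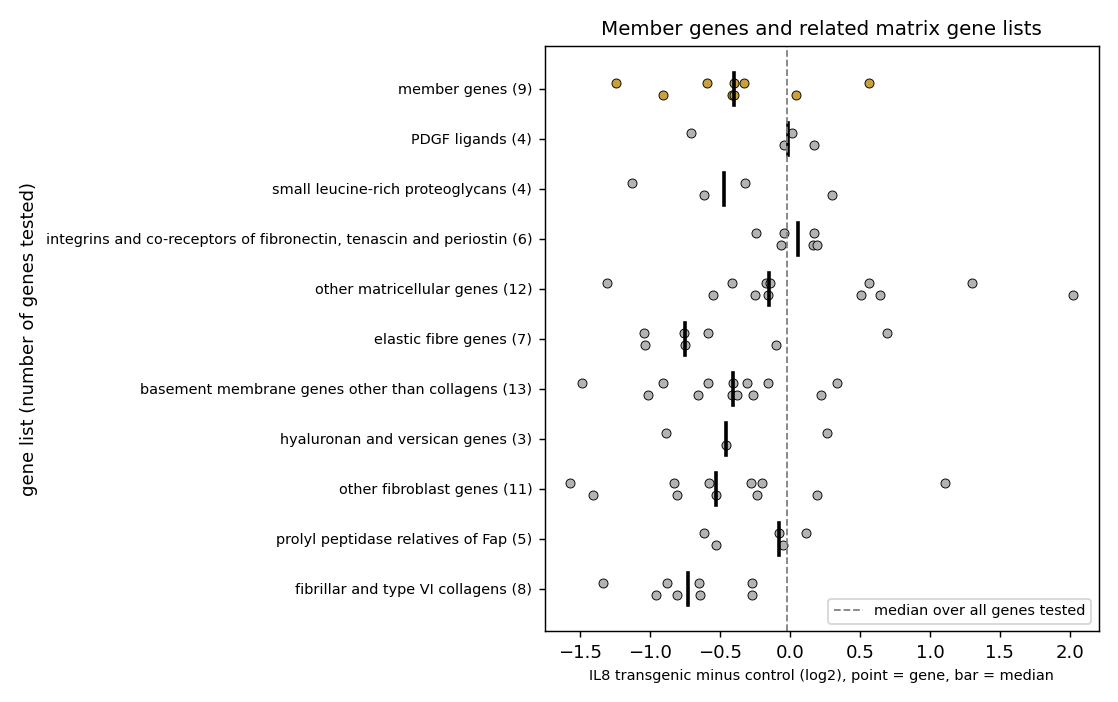
Difference between transgenic and control means (log2) for each tested gene of the set and of the related lists, 1 point per gene, with a bar at each list's median. The dashed line is the median over all genes tested, -0.02. The medians run from -0.75 for elastic fibre genes to 0.06 for integrins and co-receptors, and 0 genes of these lists passed. Values under 4 are plotted as deposited.

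The members did not share one order of arrays. Transgenic array 1 was the lowest of the 6 for 4 of the 9 genes, array 2 for 2 and array 3 for 2. The median deviation from the control mean was -0.73 on array 1, -0.22 on array 2 and -0.46 on array 3, against -0.01 to 0.14 on the control arrays. Pdgfra deviated by -1.26, -1.95 and -0.52 on transgenic arrays 1 to 3. The macrophage list deviated on average by -1.29, -1.94 and -0.53 on the same arrays, close to Pdgfra on each. Its genes did not all share that order. Csf1r, Cd68, Lyz2, C1qa and C1qb were lowest on transgenic array 2, as Pdgfra was, and Aif1, Adgre1 and Mrc1 on array 1. Cx3cr1 was under 4 on transgenic arrays 1 and 2. All 9 macrophage markers were tested, 0 passed and 9 were lower, with a median difference of -1.06. The groups were apart and lower at 5 of the 9, against 6.31% of all probe sets. The markers had a mean level of 8.38 to 8.99 on control and 6.78 to 8.19 on transgenic arrays, and their part in the Pdgfra difference was not tested. Markers of pericytes, which also carry Pdgfrb, were tested at 5 of 7, with a mean level of 6.65 to 7.14 on control and 6.72 to 7.14 on transgenic arrays. Endothelial markers were tested at 6 of 9, with Pecam1 at 4.01 or less and a mean level of 5.13 to 5.59 and 4.77 to 5.20.

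**Figure D4:**
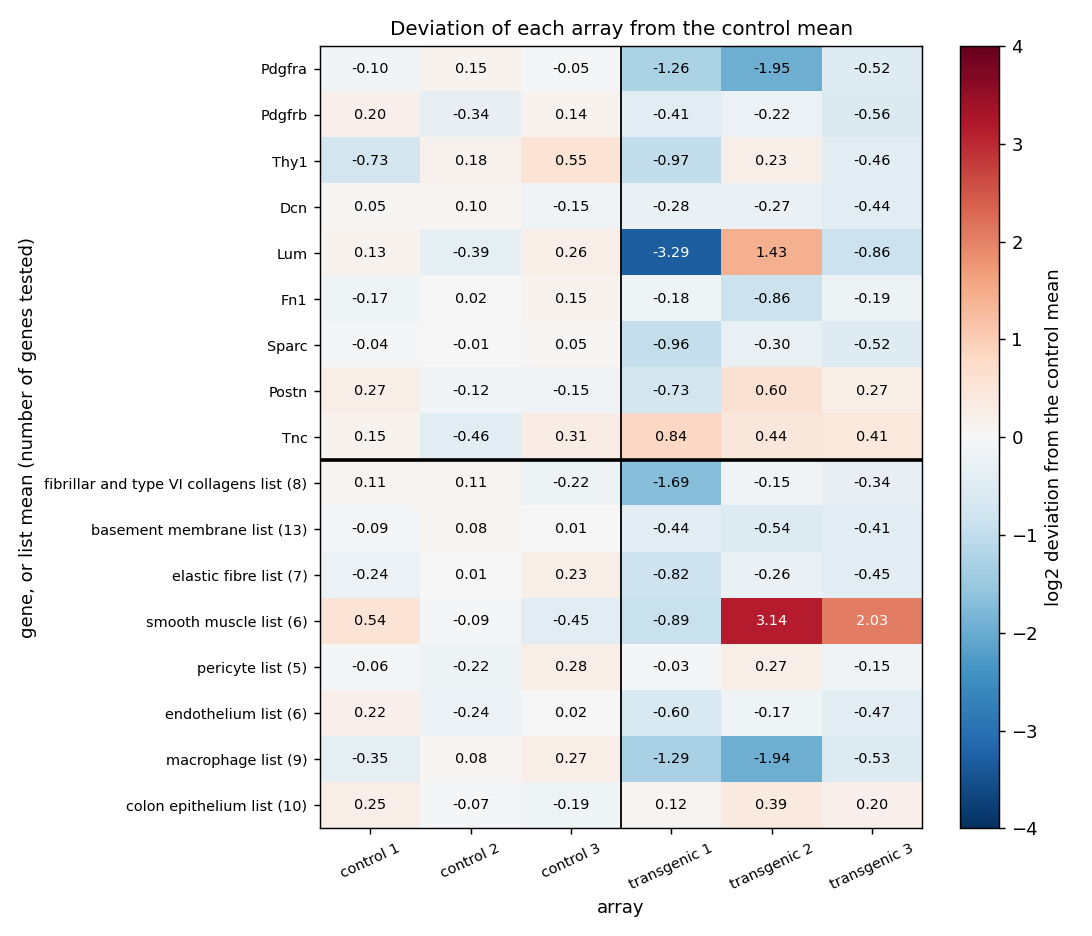
Deviation of each array from the control mean (log2, colour and printed value) for 9 genes above the line and for the mean of each related gene list below it, with control arrays on the left and transgenic arrays on the right. Lum is at -3.29 on transgenic array 1 and 1.43 on array 2, Pdgfra and the macrophage list are lowest on array 2, and the smooth muscle list is high on transgenic arrays 2 and 3.

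The genes whose pattern over the 6 arrays was most like that of Pdgfra were Dhx57 (Pearson r 0.9987), Col6a4 (0.997), Foxf2 (0.994), Paqr8 (0.993) and Nr4a2 (0.992). In all, 143 of 10288 other genes had r over 0.95 with it, so many genes share this pattern across so few arrays. Col6a4, a type VI collagen chain gene, was at 7.35, 7.97 and 7.51 in control and at 4.92, 3.66 and 6.23 in transgenic tumours, in exactly the order of Pdgfra, although 3.66 is under 4. For Dcn the nearest were Plagl2 (0.94998), Mindy3 (0.942), Nme7 (0.928), Klf16 (0.923) and Pip4k2b (0.910), and 0 genes had r over 0.95. These values describe 6 arrays in 2 groups and carry no test.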

How the data were processed

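The authors deposited 1 table of log2 values. Per the submitters' processing notes they come from GCRMA, which corrects background, normalizes arrays and summarises probes, with version and genome build not stated in the notes. That they are log2 follows from their range, and no further normalization was applied. Platform annotation gave 34958 of 45101 probe sets 1 symbol.

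Probe sets at 4 or more on at least 3 of 6 arrays were tested, without the 64 AFFX controls. The test was limma's (version 3.58.1, R 4.3.3; lmFit, then eBayes), with Benjamini-Hochberg adjustment over all 19310 and a threshold of 0.05, and it was checked on simulated data. Arrays were grouped by title. With 3 arrays per group, precision is limited, and an exact permutation test cannot go below 0.10. Members and macrophage markers are all named, up to 4 genes of a related list by smallest unadjusted p, and the 5 most alike genes by Pearson r. Kera, Epyc, Itga5, Des, Smtn, Fmod, Aspn and genes or markers at background were chosen after values were seen. Members and lists were chosen with earlier results of these data known. Alternatives were other filters, normalizations, variance and weight settings, a replicate block, a floor at 4, and leaving out X- and Y-linked genes or each array.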

Additional observations from a re-analysis of the deposited data

How the results depend on the processing

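In every alternative run, 0 member probe sets passed. Of 193 differences of member probe sets under an alternative, 188 kept their sign and 5 turned. Those were Lum, which ran from -2.08 to 0.28 with single arrays left out, and Postn, which ran from -0.23 to 0.43, with the sign turned without control array 2 (-0.01), control array 3 (-0.03), transgenic array 2 (-0.23) or transgenic array 3 (-0.06). The median over the member genes ran from -0.50 to -0.34 with single arrays left out and was -0.40 with no filter. The count of all probe sets that passed was 11 in the main setting, 8 to 11 with single arrays left out and 3 without named X- and Y-linked genes. The member probe sets with groups apart, 7 of 13, were 7 to 11 with single arrays left out, where the share over all probe sets tested rose from 10.9% to between 14.7% and 30.2%, and 6 with quantile normalization (10.95% of all) or median centring (11.04% of all). These settings were added after seeing the data. With the replicate number as a block, 8 probe sets and 0 member probe sets passed. Deviations from the group mean correlated at -0.27, -0.28 and -0.05 between same-numbered arrays, which gives no sign of a pairing by number. With 3 arrays per group, this check cannot exclude a pairing. The filter at 6 left out the dimmer probe sets of Pdgfra and Pdgfrb, which have no value there. GCRMA values under 4 hold no order, which limits Fap, Lum on transgenic array 1, and list genes with such values, among them Podn, Ogn, Prelp, Tcf21, Smoc1, Pdgfb, Pdgfd and Col6a4.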
